A study of Mus musculus with 7 samples.

Results

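Genes for factors that splice pre-mRNA and make its 3' ends were compared between fasted hearts of wild-type mice (WT) and of mice labelled KLF15-null, which lack the transcription factor Krüppel-like factor 15. Members were chosen by name: every probe set annotated to exactly 1 gene symbol beginning with Srsf, Hnrnp, Celf, Mbnl, Cpsf or Cstf, or Rbm and a digit, or equal to Nudt21, Pcf11, Clp1, Pabpn1, Rbfox1, Rbfox2, Ptbp1, Ptbp2 or Tra2b. This gave 178 of the 22626 probe sets on the array, for 72 genes. A probe set is a group of short probes that together measure 1 stretch of a transcript, usually near its 3' end. Of the 178 member probe sets 143, for 68 genes, were bright enough to be tested, with a 7-array mean at or above the 40th percentile of all probe sets (log2 5.74). A further 13 probe sets carried such a name beside another symbol and were not used here.

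Splicing joins the exons of a new transcript, and which exons are joined depends on proteins that bind the RNA beside them. SR proteins, the Srsf genes, carry a domain rich in serine and arginine and mostly promote the use of a nearby exon, while heterogeneous nuclear ribonucleoproteins (hnRNPs) often act against it. CELF, MBNL and RBFOX proteins set exon choice in heart and skeletal muscle, with CELF and MBNL acting against each other during the switch from fetal to adult heart isoforms. At the end of the transcript the cleavage and polyadenylation complexes cut the RNA and add the poly(A) tail, and where they cut sets the length of the 3' untranslated region. Transcripts of many of these genes are themselves alternatively spliced or end at more than 1 site, so probe sets of a gene can measure different transcripts. The Rbm symbols name an RNA-binding motif and not a shared role: some of these proteins act in splicing, others in RNA decay, RNA methylation or ribosome assembly.

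The arrays were Affymetrix 3' expression arrays of whole-heart RNA, 4 from WT and 3 from KLF15-null mice. All mice were labelled as male C57/BL6, 3 to 4 months old and fasted for 18 h, so no fed heart was measured and a dependence on the fast was not tested. The labels name no tissue-restricted deletion, and they give neither the deleted part of the gene nor the mouse behind each array nor any pooling. The p-values measure the spread between these samples. The Klf15 probe set had log2 signals of 8.68, 8.98, 8.73 and 9.08 on the WT arrays and 6.52, 6.23 and 6.23 on the KLF15-null arrays. Every array went against its label of male. The brightest probe set of Xist, an RNA of female cells, lay between 8.57 and 9.94 on the log2 scale. That probe set was lower in KLF15-null hearts, at -0.84 (limma, adjusted p = 0.00793), while another bright one of Xist differed by -0.01. The 7 probe sets of the Y-linked genes Eif2s3y, Kdm5d, Usp9y and Uty had 7-array means at or below percentile 27.3 of all probe sets. Arrays of a group were alike, with Pearson's r across all probe sets of 0.995 to 0.997 within WT, 0.986 to 0.993 within KLF15-null and 0.942 to 0.964 between genotypes. KLF15-null array 2 had the lowest mean correlation with its own group, 0.988. All 12 heart muscle markers passed the filter, among them Myh6 at a WT mean of 14.01 and Tnnt2 at 13.75. Of the 12, 3 were higher, Myh7 at 2.07, Nppa at 1.71 and Myl3 at 0.24, and the other 9 were not called. Among those 9, Myl7 differed by 1.78 with a wide spread. It read 5.14, 5.71, 7.57 and 8.15 in WT and 7.60, 6.53 and 11.12 in KLF15-null hearts. KLF15-null array 3 was also the highest for Nppa, at 13.42 against 12.29 and 11.98 on the other KLF15-null arrays. The summed linear signal of the 12 was 109707 to 124625 on WT and 127343 to 142210 on KLF15-null arrays. Of all genes of the array, each on its brightest tested probe set, 27.4% were higher and 19.6% lower. Markers of other cell types differed as well, with 4 of 12 macrophage and monocyte markers higher and 2 lower, and 3 of 5 neutrophil markers higher. Those 3 neutrophil markers were Lcn2 at 4.13, S100a8 at 2.19 and S100a9 at 1.41, while Csf3r at -0.05 and Cxcr2 at -0.15 were not called. Of 9 endothelial markers 3 were lower, Pecam1 at -2.24, Emcn at -1.44 and Tie1 at -0.77, and 1 higher, Flt1 at 0.85. The other 5 were not called, from -0.14 (Cdh5) to 0.46 (Kdr), and the median of the list was 0.02. Of 8 fibroblast markers 2 were lower, Dcn and Lum, and 1 higher, Pdgfra, and of 7 smooth muscle and pericyte markers 1 was lower and 1 higher. None of the 3 skeletal muscle markers that passed the filter was called. The summed signal ran from 3032 to 5089 in WT and from 4947 to 6878 in KLF15-null hearts for macrophages and monocytes, and from 263 to 409 and from 861 to 2388 for neutrophils. It ran from 2918 to 3355 and from 2274 to 3414 for endothelium, from 5748 to 10451 and from 4925 to 5675 for fibroblasts, and from 6836 to 10104 and from 10622 to 11933 for smooth muscle and pericytes. It ran from 1074 to 2380 and from 1104 to 3057 for skeletal muscle. The sums of the heart muscle, neutrophil, fibroblast and smooth muscle lists did not overlap between genotypes, as was so for 53% of all tested probe sets. Such a sum weighs the brightest genes of its list most. Rgs5 and Acta2, the brightest of the smooth muscle list, were not called (0.29 and 0.44). Lcn2, at a mean of 5.62 in WT, was the brightest neutrophil gene in KLF15-null hearts at 9.75. The part of these cells in the results was not tested. In RNA of whole tissue a change in the number of cells and a change in RNA per cell cannot be told apart.

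Splicing and 3' end factor genes were more often higher than lower in KLF15-null hearts. Of the 143 tested probe sets 59 were higher (41.3%) and 29 lower (20.3%), and 55 did not pass the threshold, an adjusted p under 0.05 from limma's moderated test over all 13576 probe sets kept. Over all of those, 26.8% were higher and 23.8% lower, so 50.6% were called in all. The share of higher members was thus above the background and that of lower members a little below it. Groups did not overlap for 86 of the 143, where 53% of all tested probe sets were so separated. The median difference (KLF15-null minus WT on the log2 scale, as for every difference given here) was 0.12 for the members and 0.00 for all tested probe sets. Judged on the brightest probe set of each gene, 35 of the 68 genes were higher and 11 lower, against 27.4% and 19.6% of 8404 genes. No list test was run, since the members were chosen with results of these data known. The hnRNP genes had the largest share of higher probe sets, 24 of 47 with 6 lower, and the RBM genes divided almost evenly, with 13 higher and 12 lower of 36.

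**Figure D1:**
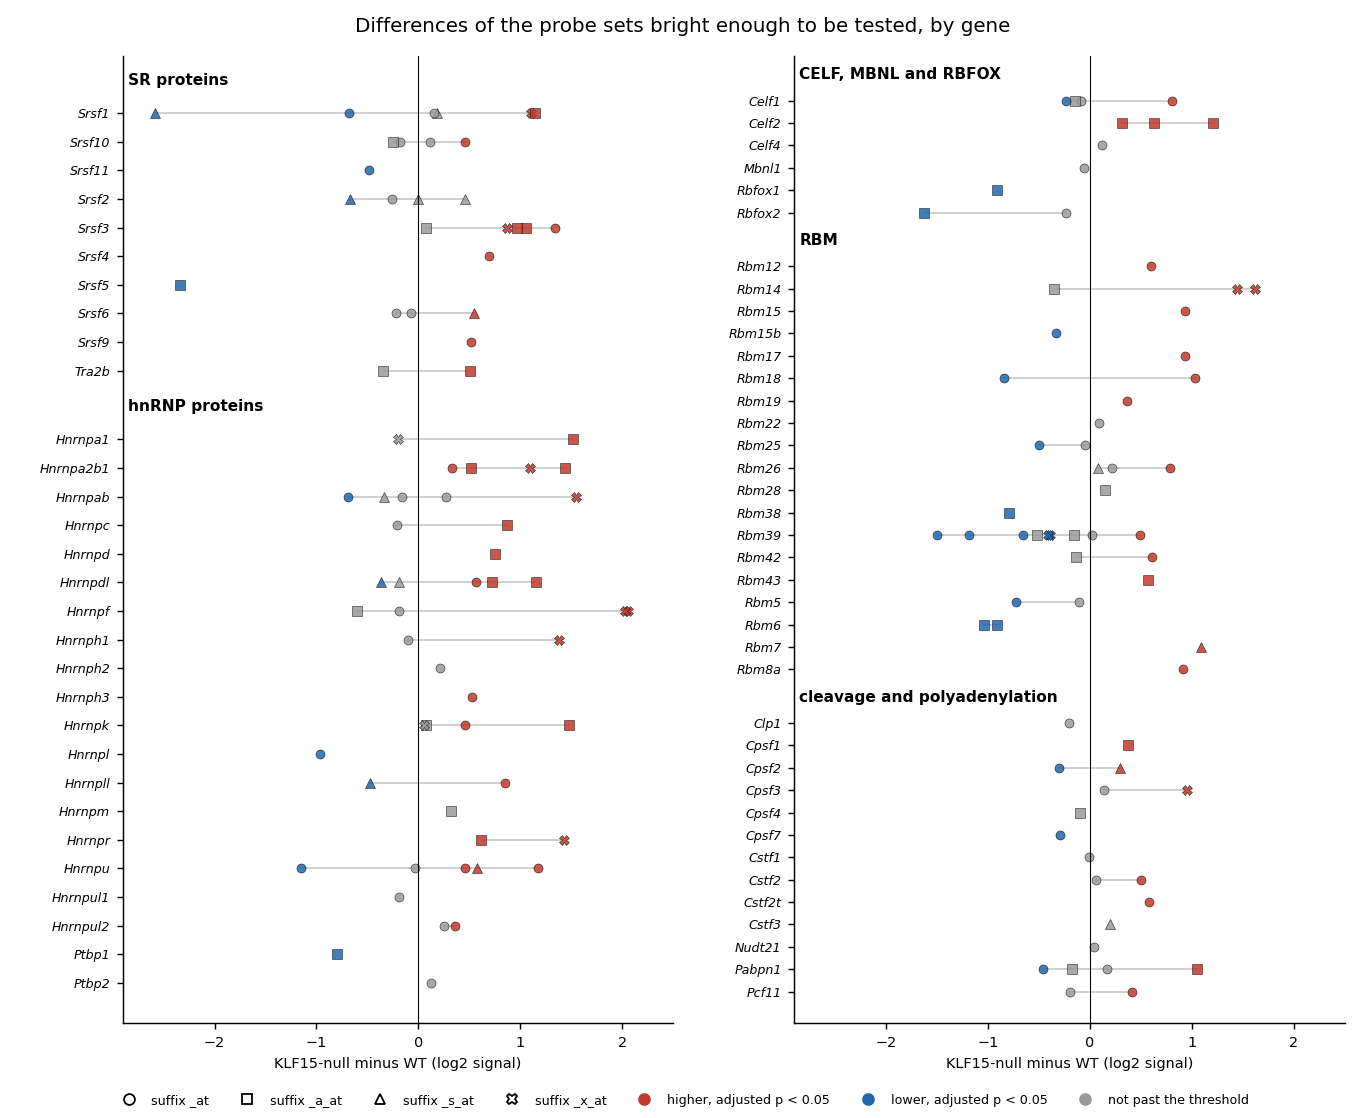
Difference between KLF15-null and WT hearts (log2 signal, x axis) for each of the 143 tested probe sets, 1 row a gene, with marker shape for the probe set suffix and colour for the call. Srsf1 spans -2.59 to 1.14, while all 3 probe sets of Celf2 lie above 0 and both of Rbm6 below it.

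Both the suffix and the brightness of a probe set went with its direction. An Affymetrix suffix of _at or _a_at marks a set whose probes match a single gene, _s_at one whose probes are shared between transcripts that can come from different genes, and _x_at one with some probes that also match unrelated transcripts. Of the 15 tested _x_at members 11 were higher and 2 lower, with a median difference of 1.11. Over the whole array _x_at probe sets were higher in 60.5% and had a median of 0.53. The 33 other probe sets of the same 12 genes had a median of 0.08, with 12 higher and 6 lower. Among members with the plain _at suffix 34.2% were higher and 21.9% lower, against 20.5% and 25% on the whole array. Tested probe sets were also cut by brightness into 4 bins of equal size. In the brightest bin (7-array mean above log2 8.72), 54.8% of 42 members and 43.2% of all were higher. In the dimmest bin 29.2% of 24 members and 15.0% of all were higher. Leaving out every _x_at probe set gave 48 higher (37.2%) and 27 lower (20.9%) members of 129, with a median of 0.08 against -0.02 for all. Of all probe sets then tested 23.6% were higher and 24.9% lower. Under other scalings the split moved: quantile normalization gave 60 higher and 33 lower members, and cyclic loess 59 and 34. Of all tested probe sets 27.2% were higher and 25.7% lower with quantile normalization, and 25.9% and 26.9% with cyclic loess. Centring each array on its median, which moved the median of all tested probe sets to 0.09, gave 63 higher and 18 lower. That moved the share of higher among called members from 67.0% to 77.8%. Over all tested probe sets the same centring moved this share from 52.9% to 63.3%. The 11 lower calls lost there were those of Srsf11, Rbm15b, Cpsf7 and 1 probe set each of Srsf1, Hnrnpab, Hnrnpdl, Celf1, Cpsf2 and Pabpn1, and 2 of Rbm39. No member that was called changed sign under these 3 scalings. A further 7 probe sets were called lower after both quantile and cyclic loess normalization, those of Mbnl1 and 1 each of Srsf2, Srsf6, Tra2b, Hnrnpab, Hnrnpf and Rbm39.

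The 35 member probe sets below the filter, which were not tested, had differences from -1.18 (Rbm5) to 0.82 (Rbm14), 21 of them above 0. Mbnl3, Rbm47, Cpsf4l and Rbm4b had no probe set above the filter. Just inside the filter stood probe sets of Srsf10, Srsf3 and Cpsf2, with 7-array means of 5.76, 5.78 and 5.80, and just outside it those of Rbm5, Ptbp2 and Rbm14, at 5.72, 5.58 and 5.50. For 12 tested probe sets 1 group mean lay below the filter level, that of KLF15-null in 8 and that of WT in 4, and 10 of the 12 were called.

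**Figure D2:**
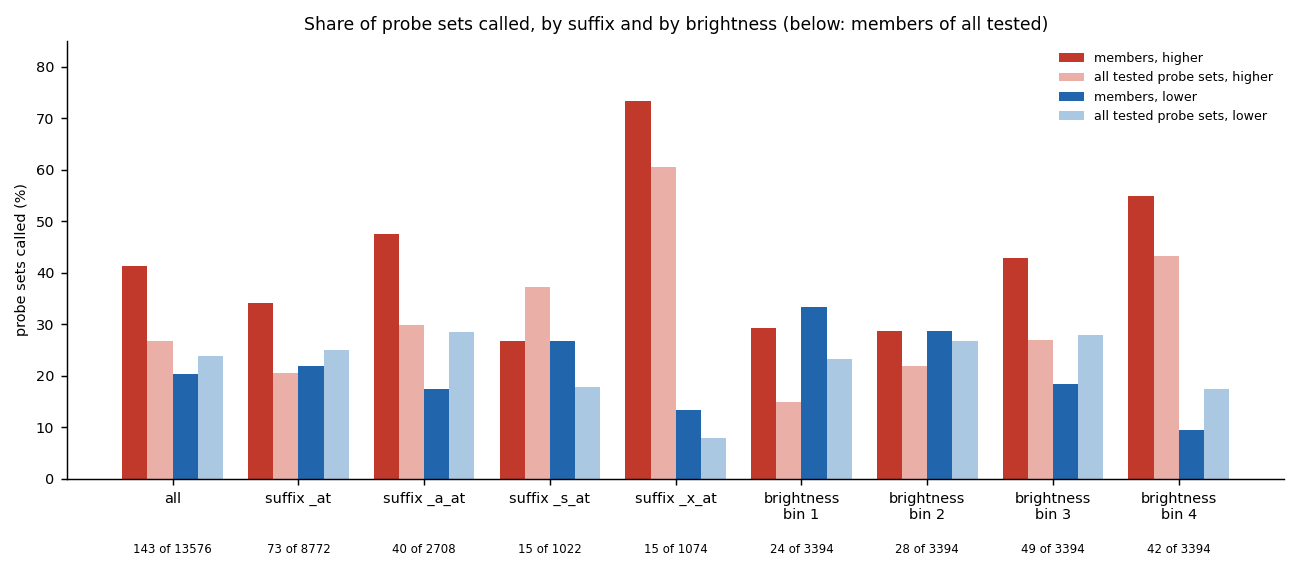
Share of probe sets called higher (red) or lower (blue) in KLF15-null hearts, in percent, for the members (dark bars) and for all tested probe sets (pale bars), over all, by suffix and by brightness bin (bin 4 the brightest). Among _x_at probe sets 73.3% of members and 60.5% of all were higher.

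Where every tested probe set of a gene was called one way, the promoter can be set beside a single direction. The promoters of 4 such genes with 1 listed start site each are shown, the 2 genes with the smallest p among falls (Srsf5 and Rbm6) and among rises (Rbm15 and Rbm17). Only Rbm6 among them had more than 1 tested probe set, so for the rest the single direction is that of 1 probe set. The sequences are from RefSeq (GRCm38.p6), run 5' to 3' on the gene's strand from 250 bases before to 50 after the start, and carry in capitals the letters CACCC and GGGCGG on either strand (GGGTG and CCGCCC on the other), which KLF and SP proteins are known to bind. Matches of the motifs may overlap.
Srsf5: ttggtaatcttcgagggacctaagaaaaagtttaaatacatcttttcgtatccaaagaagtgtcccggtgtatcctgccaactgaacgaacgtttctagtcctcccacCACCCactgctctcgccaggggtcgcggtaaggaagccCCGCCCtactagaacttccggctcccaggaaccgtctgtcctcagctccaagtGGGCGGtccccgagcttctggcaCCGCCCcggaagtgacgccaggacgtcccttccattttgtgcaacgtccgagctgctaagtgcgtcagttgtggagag
Rbm6: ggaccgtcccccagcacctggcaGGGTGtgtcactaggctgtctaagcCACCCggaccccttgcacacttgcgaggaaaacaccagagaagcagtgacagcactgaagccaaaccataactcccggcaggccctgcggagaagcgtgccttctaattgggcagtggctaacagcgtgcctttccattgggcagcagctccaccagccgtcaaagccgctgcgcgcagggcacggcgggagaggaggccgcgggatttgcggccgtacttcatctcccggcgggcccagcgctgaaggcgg
Rbm15: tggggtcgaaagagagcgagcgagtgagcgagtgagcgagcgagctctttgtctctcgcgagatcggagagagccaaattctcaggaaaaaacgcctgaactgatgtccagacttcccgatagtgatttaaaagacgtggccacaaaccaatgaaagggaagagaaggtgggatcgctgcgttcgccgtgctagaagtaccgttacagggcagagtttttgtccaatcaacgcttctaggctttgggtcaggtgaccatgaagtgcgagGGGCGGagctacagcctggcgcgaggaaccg
Rbm17: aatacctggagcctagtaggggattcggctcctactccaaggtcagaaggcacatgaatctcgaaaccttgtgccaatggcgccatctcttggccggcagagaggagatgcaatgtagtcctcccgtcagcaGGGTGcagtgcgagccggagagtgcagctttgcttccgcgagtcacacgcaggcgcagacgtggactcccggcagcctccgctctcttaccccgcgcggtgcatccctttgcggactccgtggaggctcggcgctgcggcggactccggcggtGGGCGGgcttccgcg
Srsf5 lies on the plus strand at chr12:80945249-80945548 with 1 CACCC and 3 GGGCGG matches. Rbm6, at chr9:107872770-107873069 on the minus strand, has 2 and 0. Rbm15, at chr3:107333240-107333539 on the minus strand, has 0 and 1, and Rbm17, at chr2:11603150-11603449 on the minus strand, has 1 and 1. CACCC stands in 61.0% of 82 member promoters and in 57.5% of all 32851 listed promoters, and GGGCGG in 65.9% and 35.7%. Promoters were listed for 61 of the 68 genes. Those genes had passed the brightness filter, while the full list of promoters was not filtered, so the shares come from unlike sets. A match says only that these letters are present in this window, and no binding was measured.

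SR protein genes held the largest fall of any member gene with a single probe set and the largest disagreement within a gene. Of the 28 tested probe sets of Srsf genes and Tra2b 11 were higher (39.3%) and 5 lower (17.9%), while 12 missed the threshold. Over all tested probe sets 26.8% were higher and 23.8% lower. Srsf5, whose splicing activity is known to respond to insulin, had log2 signals of 10.67, 10.52, 10.84 and 10.61 on the WT arrays and 8.98, 7.80 and 8.18 on the KLF15-null arrays (means 10.66 ± 0.13, SD, n = 4, and 8.32 ± 0.60, SD, n = 3). All 3 KLF15-null values lay below the lowest WT value, and they spread more widely than the WT values. The difference was -2.34 (SE 0.24, adjusted p = 4.35e-05), a 5.05-fold fall. Srsf3, the smallest SR protein, which also takes part in mRNA export, rose on 4 of its 5 tested probe sets, by 1.05, 0.87, 0.97 and 1.34, and the remaining one differed by 0.08 (adjusted p = 0.665). Its brightest probe set read 8.64, 8.94, 9.10 and 8.94 in WT and 10.11, 9.75 and 10.02 in KLF15-null hearts, with no overlap. The WT mean of the probe set at 1.34 was 5.20, below the filter level.

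Srsf1, which promotes exon use and is needed for the normal splicing of Camk2d in heart, had 6 tested probe sets that went separate ways. The brightest, an _x_at set, read 9.91, 10.18, 10.18 and 9.75 in WT and 10.92, 11.22 and 11.19 in KLF15-null hearts, a rise of 1.11 (SE 0.14, adjusted p = 0.000173). A set with the suffix _a_at rose by 1.14. An _s_at set read 7.92, 7.95, 7.86 and 7.63 in WT against 5.37, 5.21 and 5.18 in KLF15-null, and fell by 2.59 (SE 0.10, adjusted p = 3.81e-07), the smallest p of any member. That set averaged 5.25 in KLF15-null hearts, less than the filter level. Another fell by 0.68, and its call was lost without WT array 1, 2 or 3 or KLF15-null array 2 or 3 (differences from -0.99 to -0.40 over the 7 fits with an array left out). The last 2 probe sets differed by 0.18 and 0.15 and did not pass.

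Srsf4 rose by 0.69, from 8.40, 8.38, 8.40 and 8.30 in WT to 8.97, 9.18 and 9.03, with all 3 KLF15-null values above all WT values. Srsf9 rose by 0.52. One probe set of Srsf6 read 8.35, 8.33, 8.46 and 8.32 in WT and 8.99, 8.88 and 8.86 in KLF15-null hearts and rose by 0.54, while its brighter ones, gene-specific by suffix, differed by -0.22 and -0.07, not past the threshold. Srsf2, the spliceosome assembly factor SC35, fell by 0.67 on 1 probe set (7.35, 7.32, 7.39 and 7.39 against 6.94, 6.37 and 6.75) and differed by 0.46, -0.26 and -0.01 on its other 3, not past the threshold. Srsf10, which is known to repress splicing when dephosphorylated, rose by 0.46 on the brightest of 4 probe sets and differed by -0.18, -0.25 and 0.11 on the rest, not past the threshold. The Srsf10 call was lost without KLF15-null array 1 (differences of 0.38 to 0.58 with an array left out). Srsf11 read 8.98, 9.0, 9.14 and 9.10 in WT and 8.98, 8.19 and 8.56 in KLF15-null hearts. It was called lower at -0.48, but KLF15-null array 1 overlapped the WT values, and the call held only without KLF15-null array 1, being lost without any other array (-0.68 to -0.29). Tra2b, which activates exons through purine-rich sequences, rose by 0.50 on its brighter probe set and differed by -0.34 on the other (adjusted p = 0.0544).

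The hnRNP genes held the largest rises. Hnrnpf, which binds runs of G, rose by 2.06 and 2.03 on a pair of _x_at probe sets, and differed by -0.60 and -0.19 on its other 2, neither past the threshold. The first of these was called lower after quantile and cyclic loess normalization (-0.63 and -0.64). One _x_at set read 8.15, 8.28, 8.47 and 8.50 in WT and 10.08, 10.55 and 10.51 in KLF15-null hearts, above every WT value. Hnrnpab, which binds RNA and shuttles between nucleus and cytoplasm, read 10.08, 10.30, 10.43 and 10.16 in WT against 11.77, 11.92 and 11.67 in KLF15-null on its brightest probe set, also _x_at, a rise of 1.55 (SE 0.12, adjusted p = 1.04e-05). Its second brightest, a plain _at set, read 10.66, 10.52, 10.90 and 11.05 in WT against 10.55, 9.41 and 10.31 in KLF15-null and was called lower at -0.69. There KLF15-null array 1 lay within the WT range, and the call held only without that array (-0.92 to -0.35 over the 7 fits). The other 3 Hnrnpab probe sets differed by 0.27, -0.34 and -0.16 and did not pass.

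Hnrnpk, a protein that binds runs of C, rose by 1.48 on its brightest probe set, from 10.56, 10.49, 10.61 and 10.75 to 11.87, 12.26 and 12.10. A plain _at set rose by 0.46, and its other 2 differed by 0.08 and 0.06, not past the threshold. Hnrnpa1, the classic antagonist of SR proteins, rose by 1.51 on 1 probe set (7.55, 7.70, 7.50 and 7.56 in WT and 8.80, 9.26 and 9.22 in KLF15-null hearts) and differed by -0.20 on an _x_at set, not past the threshold. Both genes had a rise beside probe sets that did not pass. Hnrnpa2b1, close in sequence to Hnrnpa1, was called higher on all 4 of its probe sets, at 0.52, 1.44, 0.33 and 1.09. The probe set at 1.44 read 9.37, 9.56, 9.93 and 9.73 in WT and 10.94, 11.16 and 11.14 in KLF15-null hearts. The call at 0.52 was lost without KLF15-null array 3 (0.40 to 0.66) and after quantile or cyclic loess normalization (0.13 and 0.24), and the one at 0.33 held only without KLF15-null array 2 (0.26 to 0.44).

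Hnrnpu, a nuclear scaffold protein needed for normal splicing in heart muscle, rose on 3 of its 5 probe sets and fell on another. The brightest read 9.96, 9.95, 10.28 and 9.95 in WT and 11.04, 11.37 and 11.21 in KLF15-null hearts, a rise of 1.17 (SE 0.13, adjusted p = 6.90e-05). The one that fell read 9.07, 9.19, 9.18 and 8.98 in WT against 8.35, 7.65 and 7.88 in KLF15-null, which is -1.15 (SE 0.16, adjusted p = 0.000257). Both carry the plain _at suffix, and neither had overlapping groups. The other rises were 0.58 and 0.46, and the fifth probe set differed by -0.04. The call at 0.46 held only without KLF15-null array 1 (0.29 to 0.65). Hnrnpdl rose on 3 probe sets, by 1.16, 0.72 and 0.56, and was lower on 1 at -0.37, with the fifth at -0.19 and not past the threshold. Its brightest read 10.96, 10.93, 11.06 and 10.86 in WT and 12.13, 12.21 and 11.98 in KLF15-null hearts, and the one at -0.37 read 7.41, 7.40, 7.49 and 7.27 in WT against 7.26, 7.01 and 6.79 in KLF15-null, groups that only just separate. The Hnrnpdl call at -0.37 was lost without WT array 1, 2 or 3 or KLF15-null array 3 (-0.49 to -0.26), and the one at 0.56 without WT array 4 or KLF15-null array 1 or 3 (0.37 to 0.78).

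Hnrnpll, known for the splicing of the leukocyte gene Ptprc, had 2 probe sets that moved apart. One read 7.69, 7.74, 7.64 and 7.62 in WT and 8.22, 8.78 and 8.57 in KLF15-null hearts (0.85, SE 0.13, adjusted p = 0.000525). The other, an _s_at set, read 8.29, 8.37, 8.46 and 8.27 in WT against 8.0, 7.86 and 7.74 in KLF15-null (-0.48, SE 0.10, adjusted p = 0.00349). On both probe sets every KLF15-null array lay outside the range of the WT arrays. Hnrnpr rose by 1.43 and 0.61 on its probe sets, Hnrnpc by 0.87 on one with the other at -0.21, and Hnrnpd by 0.75 on its only one. Hnrnph1 rose by 1.38 on an _x_at set whose WT mean of 5.71 lay below the filter level, while its brighter plain set differed by -0.10 (adjusted p = 0.642). Hnrnph3 rose by 0.52 with overlapping groups, a call lost without WT array 1, 2 or 4 or KLF15-null array 1 or 3 (0.34 to 0.74). One probe set of Hnrnpul2 rose by 0.36 with the other at 0.26. Hnrnph2 at 0.22, Hnrnpm at 0.32, Hnrnpul1 at -0.19 and Ptbp2 at 0.12 did not pass. Hnrnpl, which binds CA repeats, read 7.50, 7.54, 7.45 and 7.24 in WT and 6.87, 6.01 and 6.52 in KLF15-null hearts and fell by 0.96 (SE 0.18, adjusted p = 0.00155). Ptbp1, a repressor that binds pyrimidine tracts, read 8.22, 8.10, 8.24 and 8.15 in WT against 7.66, 7.0 and 7.46 in KLF15-null and fell by 0.80 (SE 0.15, adjusted p = 0.00138). Each had a single tested probe set, and in both the KLF15-null values lay below all WT values.

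Among the tissue-specific regulators both RBFOX genes fell and Celf2 rose. Of 12 tested probe sets 4 were higher (33.3%) and 3 lower (25%), while 5 missed the threshold, shares near the 26.8% and 23.8% of all tested probe sets. Rbfox2, which binds UGCAUG beside muscle exons, read 8.58, 8.77, 8.98 and 8.41 in WT and 7.23, 7.04 and 6.90 in KLF15-null hearts, with no overlap. It fell by 1.63 (SE 0.15, adjusted p = 2.09e-05), and its second tested probe set differed by -0.23 (adjusted p = 0.0522). Rbfox1, its paralog, read 8.31, 8.24, 8.61 and 8.24 in WT against 7.42, 7.65 and 7.24 in KLF15-null and fell by 0.91 (SE 0.13, adjusted p = 0.000342) on its only probe set. Celf2 rose on each of its 3 tested probe sets, by 1.21, 0.64 and 0.32. The brightest read 9.04, 9.24, 9.13 and 8.96 in WT and 10.25, 10.54 and 10.13 in KLF15-null hearts (adjusted p = 5.41e-05), and the call at 0.32 was lost without WT array 1, 2 or 3 or KLF15-null array 1 (0.24 to 0.38). Celf1 read 10.25, 10.39, 10.50 and 10.20 in WT against 11.07, 11.17 and 11.19 in KLF15-null on its brightest probe set, a rise of 0.81. Its dimmest tested set read 6.04, 5.91, 5.81 and 5.93 in WT against 5.65, 5.81 and 5.60 in KLF15-null, overlapping values called lower at -0.23. That call was lost without WT array 1, 2 or 4 or KLF15-null array 1 or 3 (-0.29 to -0.19), and after quantile normalization and median centring (-0.18 and -0.14). The other 2 Celf1 probe sets stood at -0.08 and -0.15, not past the threshold. Mbnl1, the main muscleblind gene of adult heart, differed by -0.06 (SE 0.11, adjusted p = 0.68) on its only probe set, and was called lower after quantile and cyclic loess normalization (-0.45 and -0.35). Celf4 differed by 0.12 and did not pass, and no probe set of Mbnl3 was bright enough.

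**Figure D3:**
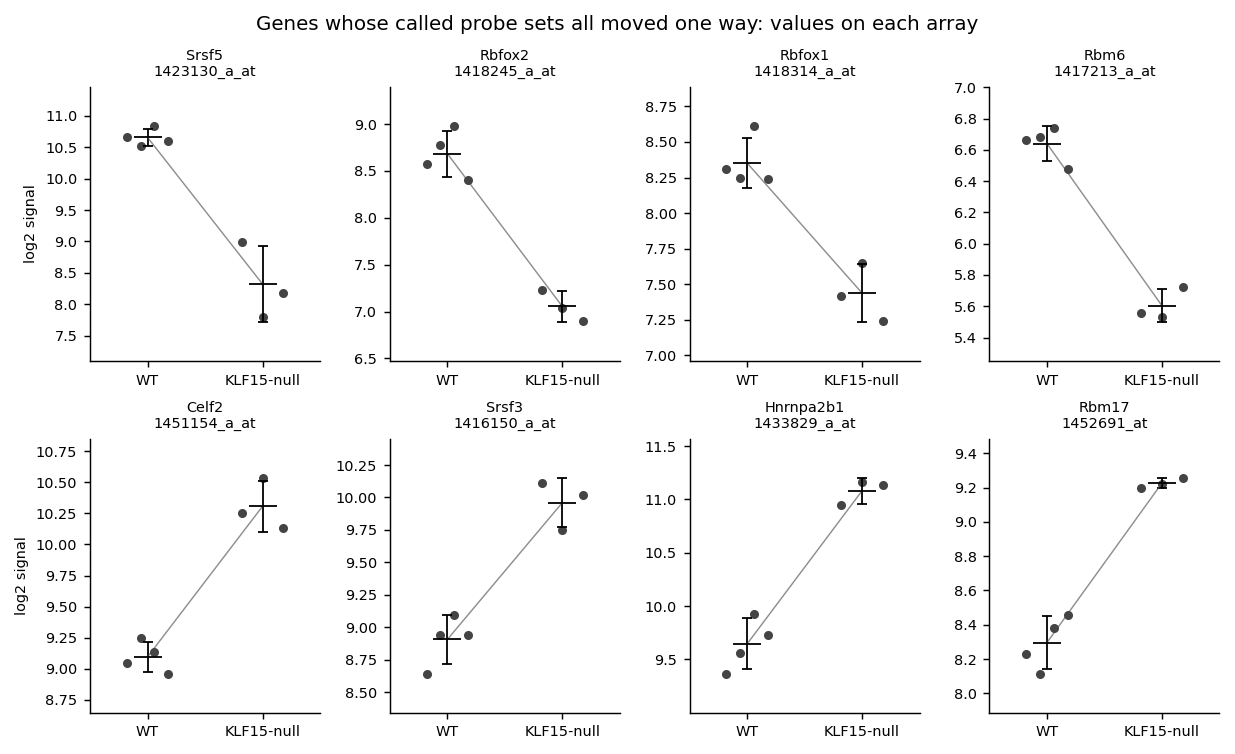
Log2 signal (y axis) on each WT and KLF15-null array for 1 probe set of each of 8 genes whose called probe sets all moved one way, with the mean and SD of each group (n = 4 and n = 3) and a line joining the means. Each of the 8 has its groups fully apart, and Srsf5 has the widest KLF15-null spread (SD 0.60).

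The RBM genes moved both ways, with 13 of 36 tested probe sets higher (36.1%) and 12 lower (33.3%), against 26.8% and 23.8% of all. Rbm14, a paraspeckle protein, rose by 1.62 and 1.44 on a pair of _x_at sets (7.10, 7.50, 7.12 and 7.16 in WT and 8.65, 8.96 and 8.91 in KLF15-null hearts on the brighter) and stood at -0.35 on its _a_at set, not past the threshold. Rbm15, an adaptor of the RNA methylation complex, read 6.60, 6.78, 6.72 and 6.62 in WT against 7.53, 7.75 and 7.57 in KLF15-null and rose by 0.94 (SE 0.09, adjusted p = 3.56e-05). Its paralog Rbm15b was lower at -0.33, a call lost without WT array 3 or 4 or KLF15-null array 2 (-0.38 to -0.26). Rbm17, the splice site factor SPF45, read 8.23, 8.11, 8.38 and 8.46 in WT and 9.20, 9.22 and 9.26 in KLF15-null hearts and rose by 0.93 (SE 0.11), with a KLF15-null spread of 0.03 (SD, n = 3). Rbm7, of the complex that hands nuclear RNA to the exosome, read 7.71, 7.94, 7.98 and 7.79 in WT against 8.75, 9.24 and 8.85 in KLF15-null and rose by 1.09. Rbm8a of the exon junction complex rose by 0.91, Rbm12 by 0.60 and Rbm43 by 0.57, each on its only tested probe set. The WT mean of Rbm12, 5.55, was under the filter level. Rbm42 rose by 0.61 on one and differed by -0.13 on the other, and Rbm26 rose by 0.79 on one and differed by 0.21 and 0.08 on the rest. Rbm19, needed for ribosome assembly, was higher at 0.36, a call lost without WT array 1 or 4 or KLF15-null array 1 or 3 (0.27 to 0.47). Rbm22 at 0.09 and Rbm28 at 0.15 did not pass.

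Rbm6, of a family of splicing regulators with Rbm5, fell on both of its probe sets. The one with the smaller p read 6.66, 6.68, 6.74 and 6.48 in WT and 5.55, 5.53 and 5.72 in KLF15-null hearts, which is -1.04 (SE 0.09, adjusted p = 1.80e-05), with the KLF15-null mean of 5.60 under the filter level. The other fell by 0.91. Rbm5 itself fell by 0.72 on 1 of 2 tested probe sets, the brighter one standing at -0.10, not past the threshold, and a further one that just missed the filter (mean 5.72) differed by -1.18. Rbm38, which binds the transcripts of cell cycle and muscle genes, read 8.74, 9.11, 9.10 and 8.76 in WT against 8.33, 7.97 and 8.08 in KLF15-null and fell by 0.80 (SE 0.14, adjusted p = 0.00115). Rbm25, which acts with the U1 particle, fell by 0.50 on one and differed by -0.04 on the brighter. Rbm39, a coactivator that also acts in 3' splice site choice, had 9 tested probe sets, of which 5 were lower and 1 higher. The largest falls were -1.50, -1.18 and -0.66 on plain _at sets, all with KLF15-null means below the filter level. One of them read 6.58, 6.57, 6.63 and 6.58 in WT and 5.30, 5.26 and 5.67 in KLF15-null hearts. The probe set that rose read 6.23, 6.31, 6.35 and 6.29 in WT against 6.86, 6.76 and 6.73 in KLF15-null (0.49, SE 0.08, adjusted p = 0.000542). An _x_at set read 7.63, 7.72, 7.67 and 7.56 in WT against 7.05, 7.54 and 7.18 in KLF15-null and was lower at -0.39, and another at -0.41. The first of these calls was lost without WT array 2 or 3 or KLF15-null array 1 or 3 (-0.53 to -0.29), and the second without WT array 2 or KLF15-null array 1 or 3 (-0.57 to -0.31). After quantile normalization both were lost (-0.32 and -0.31), and after cyclic loess the first (-0.36). Of the other 3 Rbm39 sets the brightest stood at -0.52, and the rest at -0.15 and 0.02, none past the threshold.

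Rbm18, a little-studied RNA-binding protein, had 2 plain _at probe sets that moved apart. One read 7.62, 7.87, 7.89 and 7.55 in WT and 9.04, 8.47 and 8.79 in KLF15-null hearts, a rise of 1.04 (SE 0.15, adjusted p = 0.00036). The other read 7.50, 7.81, 7.72 and 7.76 in WT against 7.03, 6.67 and 6.88 in KLF15-null, a fall of 0.84 (SE 0.12, adjusted p = 0.000258). Neither had overlapping groups. The first went from a mean of 7.73 to 8.77 and the second from 7.70 to 6.86.

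Of 20 tested probe sets of 13 cleavage and polyadenylation genes 7 were higher (35.0%) and 3 lower (15.0%), while 10 missed the threshold. The share of higher was above the 26.8% of all tested probe sets and that of lower below the 23.8%, on only 20 member probe sets. Differences ran from -0.46 to 1.05. Pabpn1, the nuclear poly(A)-binding protein, had the largest, read 7.80, 7.71, 7.99 and 7.72 in WT and 8.58, 8.93 and 9.07 in KLF15-null hearts, and rose by 1.05 (SE 0.14, adjusted p = 0.000166). Its dimmest probe set read 6.69, 6.75, 6.64 and 6.54 in WT against 6.50, 5.69 and 6.39 in KLF15-null, a difference of -0.46 (-0.61 to -0.21 with an array left out). That call held only without KLF15-null array 1 and was lost without any other array and after quantile, cyclic loess or median scaling. The other 2 Pabpn1 probe sets stood at -0.17 and 0.17, not past the threshold. Cpsf3, the endonuclease that cuts the transcript, rose by 0.95 on an _x_at set (9.33, 9.29, 9.20 and 9.10 in WT and 9.80, 10.47 and 10.28 in KLF15-null hearts) and differed by 0.14 on its plain set (adjusted p = 0.369).

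Cstf2t, a paralog of the cleavage stimulation factor Cstf2, read 8.43, 8.57, 8.57 and 8.29 in WT and 8.87, 9.09 and 9.19 in KLF15-null hearts and rose by 0.58 (SE 0.12, adjusted p = 0.00279). Cstf2, which binds the GU-rich element after the cut, read 6.26, 6.57, 6.57 and 6.31 in WT against 6.95, 6.74 and 7.09 in KLF15-null and rose by 0.50, with its second probe set at 0.06, not past the threshold. Pcf11, a termination factor, rose by 0.41 on one and stood at -0.19 on the brighter. Cpsf1, which helps hold the poly(A) signal complex together, was higher at 0.37, a call lost without WT array 1, 2 or 4 or KLF15-null array 1 or 3 (0.30 to 0.48). Cpsf7, a subunit of cleavage factor I, read 9.26, 9.21, 9.17 and 9.12 in WT against 9.0, 8.77 and 8.93 in KLF15-null and was lower at -0.29, a call that held only without KLF15-null array 1 (-0.34 to -0.23). Nudt21, the subunit of the same factor that binds UGUA and sets which poly(A) site is used, read 8.78 on the 7-array mean and differed by 0.04 (SE 0.12, adjusted p = 0.797). Cpsf2 was higher on 1 probe set and lower on the other, by small amounts: 5.86, 5.76, 5.67 and 5.92 against 5.96, 6.24 and 6.08, a difference of 0.29, and 5.92, 6.06, 5.94 and 5.78 against 5.55, 5.69 and 5.62, a difference of -0.30. The first of these calls was lost without WT array 2 or 3 or KLF15-null array 2 or 3 (0.22 to 0.36), and the second, which averaged 5.62 in KLF15-null hearts and so less than the filter level, after median centring (-0.21). Clp1 at -0.21, Cpsf4 at -0.10, Cstf1 at -0.01 and Cstf3 at 0.20 did not pass.

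Probe sets of the same gene often differed in direction, and how often depended on what was counted. Of the 34 member genes with at least 2 tested probe sets 21 (61.8%) had differences of both signs, and 10 (29.4%) had at least 1 probe set called higher and at least 1 called lower. Over all 2748 genes of the array with at least 2 tested probe sets the shares were 55.0% and 21%. Without a filter on brightness 30 of 45 member genes (66.7%) and 58.2% of all genes had both signs. Counted by pairs of probe sets within a gene, 71 of 162 member pairs (43.8%) had opposite signs and 21 (13%) opposite calls, against 44.9% and 14.8% of all 5999 such pairs. With the suffixes _at and _a_at alone 12 of 26 member genes had both signs, a count that has no share over all genes to be read against. With all suffixes the members' share was above that of the array when genes were counted and slightly below it when pairs were counted. Member genes had up to 9 tested probe sets (Rbm39), and a gene with more of them counts as disagreeing when any 1 differs from the rest.

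The 10 genes with opposite calls were Celf1, Cpsf2, Hnrnpab, Hnrnpdl, Hnrnpll, Hnrnpu, Pabpn1, Rbm18, Rbm39 and Srsf1. In 5 of them, Hnrnpll, Hnrnpu, Rbm18, Rbm39 and Srsf1, opposite calls were also made with each array left out in turn and under each of the 3 other scalings, though Rbm39 lost them with a filter at the 60th percentile. For the other 5 at least 1 of the calls depended on single arrays, as given for each gene. The count of 10 became 6 without WT array 1 or 3 and 5 without WT array 2 or KLF15-null array 3. It became 14 without KLF15-null array 1 or at a threshold of 0.1, and 17 with array weights. A further 11 genes had both signs without opposite calls, and 13 had a single sign. Of those 13 only Celf2, Hnrnpa2b1, Hnrnpr and Rbm6 had every tested probe set called the same way, 11.8% of the 34 genes against 14.4% of all genes. The remaining 34 member genes had 1 tested probe set each, which was higher in 13, lower in 8 and not past the threshold in 13, so for these no comparison between probe sets could be made.

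**Figure D4:**
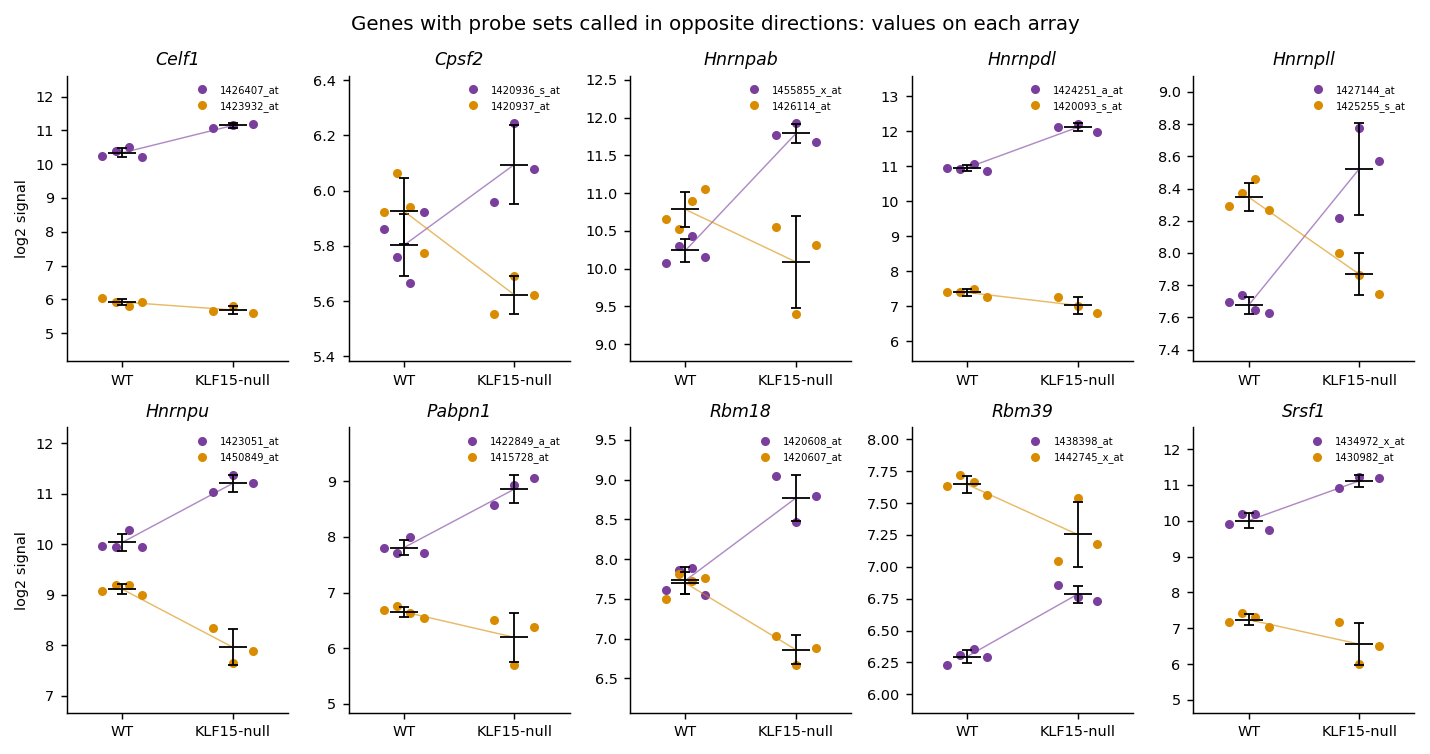
Log2 signal (y axis) on each array for the brightest probe set called higher (purple) and the brightest called lower (orange) of the 10 genes with opposite calls, with group means and SD (n = 4 WT, n = 3 KLF15-null). The Hnrnpll means go from 7.68 to 8.52 on one probe set and from 8.35 to 7.87 on the other, while the groups of the lower-called Celf1 and Hnrnpab probe sets overlap.

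The disagreement itself was tested by fitting the within-array difference between each further probe set of a gene and the brightest one, in which an offset of a whole array cancels. Of 75 member pairs 59 differed between genotypes (adjusted p under 0.05 over all 4044 pairs of the array), where 68% of all pairs did. The pairs came from 34 genes, of which 32 had at least 1 such pair, the exceptions being Hnrnpul2 and Rbm6. On the whole array 2048 of 2748 genes had at least 1. Member genes had more pairs each, and a gene with more pairs counts when any 1 of them passes. The largest change was in Srsf1, between its _s_at set and its brightest set, at -3.69 (SE 0.16, adjusted p = 1.67e-07). For Hnrnpu the gap between the opposite sets changed by -2.32 (SE 0.22, adjusted p = 1.50e-05), for Rbm18 by -1.88 (SE 0.13, adjusted p = 2.72e-06) and for Hnrnpll by 1.32 (SE 0.18, adjusted p = 0.00012). In Hnrnpf the gap between its brightest _x_at set and its _a_at set changed by -2.66, and in Rbfox2 that between the set that fell and the set not past the threshold by 1.39. Of the 16 pairs that did not pass, the _x_at sets of Hnrnpf differed by -0.03 (SE 0.11), those of Rbm14 by -0.18 (SE 0.15), and the _x_at and _a_at sets of Srsf1 by 0.03 (SE 0.14). Srsf3 had 3 such pairs, at -0.09, -0.19 and 0.28, and Hnrnpa2b1 had 1 at -0.19.

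In 49 of the 59 pairs the dimmer probe set moved down relative to the brightest and in 10 up. Of the 2750 called pairs of the whole array 1954 moved down and 796 up. The median change was -0.71 for members and -0.32 for all pairs. This split moved with the choice of reference, which was brightest over all 7 arrays and so was chosen with KLF15-null values. With the probe set brightest in WT as reference, 56 of 75 member pairs were called, 39 with the other set moving down and 17 up. On the whole array 2738 pairs were then called, 1581 down and 1157 up. The medians were -0.45 for members and -0.11 for all pairs. Among probe sets with the gene-specific suffixes _at and _a_at alone, 38 of 48 member pairs were called (79.2%, against 66.6% of all such pairs). There 5 of 26 member genes had opposite calls, again with no share over all genes to be read against. Which stretch of the transcript each probe set measures is not in the tables used here, so the isoforms behind these values were not tested.

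**Figure D5:**
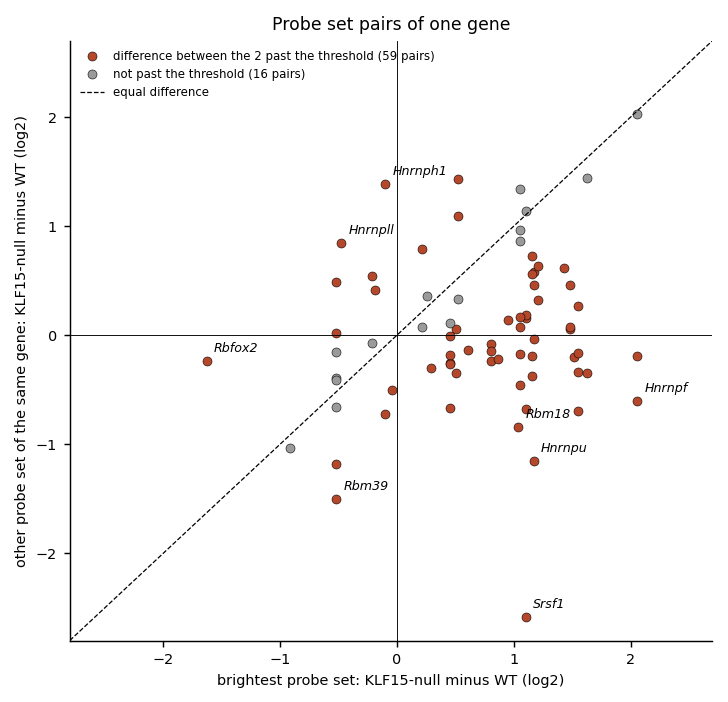
Difference between KLF15-null and WT hearts (log2) of the brightest probe set of a gene (x axis) and of each other tested probe set of that gene (y axis), for 75 pairs from 34 genes, coloured by whether the 2 differences differed. Srsf1 lies farthest from the dashed line of equal differences, with 1.11 on the x axis and -2.59 on the y axis.

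Other genes of the same machinery were taken from 4 lists, each gene on its brightest tested probe set, to be read against 27.4% of all genes higher and 19.6% lower. Among 33 core spliceosome genes 13 rose and 3 fell, with a median of 0.17. Snrnp40 of the U5 particle rose by 2.06, the Sm ring genes Snrpg and Snrpe by 1.56 and 1.31, and the helicase gene Dhx15 by 1.16, while Prpf8, the central U5 protein, fell by 1.62 and Crnkl1 by 0.89. Of 25 other splicing regulators 9 were higher and 5 lower, while 11 missed the threshold. Rnps1 of the exon junction complex rose by 2.11 on an _x_at set and Tardbp, which represses cryptic exons, by 1.35, and Sfpq, a paraspeckle protein, fell by 2.17. Of 10 kinase genes that act on SR proteins or the spliceosome 2 were higher, Prpf4b by 1.68 and Srpk1 by 0.51, and 1 lower, Dyrk1a at -0.46, with Clk1 at 0.03, not past the threshold. Of 13 other genes of 3' end formation 3 were higher and 5 lower, the falls including the exonuclease gene Xrn2, which ends transcription after the cut, at -1.10, the poly(A)-binding protein genes Zc3h14 and Pabpc1 at -0.78 and -0.71, and the phosphatase gene Ppp1ca at -1.22. The poly(A) polymerase gene Papola rose by 0.44.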

How the data were processed

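RNA of fasted mouse hearts was measured on 4 WT and 3 KLF15-null arrays, with Trizol extraction and one-cycle 3' labelling according to the labels' protocols. The values are the deposited log2 signals of the authors' value table. GCOS is named in the submitters' processing notes, while the summarization and scaling of signals were not given in the sources used. The median of an array lay between 6.22 and 6.33, while the 98th percentile was 11.43 to 11.74 in WT and 11.86 to 12.02 in KLF15-null, so any difference in scaling can shift bright probe sets. Depth has no meaning for arrays, and their number limits the precision.

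Probe sets were named from GEO's platform annotation, and all 178 members matched a RefSeq gene by Entrez number. Probe sets with a 7-array mean at or above the 40th percentile (13576 of 22626) were fitted on the 2 groups with limma 3.58.1 (R 4.3.3) with an intensity trend, and p-values were adjusted over all of them (Benjamini-Hochberg, threshold 0.05). The pair fit took each further probe set of a gene minus its brightest, adjusted over 4044 pairs. Both fits were tested on simulated data. Values on every array are given for up to 4 called probe sets per direction in each family by smallest p, 1 a gene, for the brightest called probe sets of genes with opposite calls, and for Klf15. Of the other lists up to 4 genes per direction could be named by smallest p. Probe sets given on every array beyond these, and Clk1, were chosen after their values were seen. The members and lists were chosen with earlier results of these data known. Alternatives were other filters, scalings, probe set types, variance models, a threshold of 0.1, the replicate block and each array left out. The reference brightest in WT was added after seeing the data.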

Additional observations from a re-analysis of the deposited data

Results flagged for a closer look

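In 3 of the 46 WT groups of named probe sets 1 array stood apart from the other 3, where chance sets apart about 1 group in 20. On the brightest Hnrnpu probe set WT array 3 read 10.28 and the others 9.95 to 9.96. On the brightest Rbm14 probe set WT array 2 read 7.50 and the others 7.10 to 7.16. On the Rbm39 probe set that fell by 1.18 WT array 3 read 6.63 and the others 6.57 to 6.58. All 3 probe sets kept their calls with each array left out in turn.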

How the results depend on the processing

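The deposited signals do not say how arrays were scaled, and 3 KLF15-null arrays carry that group's spread. Against a median of 0.12, 59 members higher, 29 lower, 10 genes with opposite calls and 59 of 75 pairs, a filter at the 60th percentile gave a median of 0.22 and 38 of 46 pairs. Median centring gave a median of 0.22, 18 lower and 6 genes with opposite calls. Array weights gave 45 lower and 17 such genes, and probe sets with the suffix _at or _a_at alone 5 such genes and 38 of 48 pairs. With an array left out, genes with opposite calls ranged from 5 to 14, lower members from 21 to 37, higher members from 50 to 61 and pairs from 53 to 62. Other values of these results stayed within 1.5 times the count or 1 SD of the median. For the 46 named probe sets no alternative reversed a sign. With an array left out 273 values kept their call and 46 lost it, and under the other alternatives 450 kept it and 27 lost it.

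Same-numbered arrays did not deviate together (r of -0.11, 0.00 and 0.19 for replicates 1 to 3), and were not treated as paired. The fit with the replicate block gave 52 higher, 23 lower, 6 genes with opposite calls, 55 pairs and a median of 0.12.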
